A study of Mus musculus with 12 samples.

Results

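The genes of the mitochondrial genome were taken as the 37 of 53801 genes whose symbol begins with mt-, and were followed in whole mouse hearts after acute myocardial infarction (AMI). Of these 37 genes, 13 encode proteins, 2 encode ribosomal RNAs (rRNAs), and 22 encode transfer RNAs (tRNAs). Hearts came from adult male C57BL/6N mice that carried no genetic change, after sham surgery or after permanent ligation of the left coronary artery. There were 4 hearts, and 4 libraries, after sham surgery (sham), 4 at 1 day after ligation (day 1 AMI), and 4 at 7 days (day 7 AMI). The whole heart was taken, so infarcted and spared myocardium were mixed in each library, and the day on which sham hearts were harvested was not given separately. Depth ran from 23204551 to 32166517 counts per library.

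Mitochondria keep a small circular genome that is transcribed from both strands as long precursors. The tRNA genes stand between most of the rRNA and mRNA genes, and the precursors are cut at the tRNAs to release the mature RNAs. All the proteins it encodes are subunits of the respiratory chain or the ATP synthase. The mt-Nd genes encode subunits of complex I, which takes electrons from NADH. The gene *mt-Cytb* encodes cytochrome b of complex III, the mt-Co genes encode the core of complex IV (cytochrome c oxidase), and the mt-Atp genes encode subunits of complex V (the ATP synthase). All other subunits, and every protein that copies or reads the mitochondrial genome, are encoded in the nucleus. Cardiomyocytes are rich in mitochondria, so these transcripts are abundant in the heart.

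Only 9 of the 37 genes carried counts in every library. They were the rRNA genes *mt-Rnr1* and *mt-Rnr2* and the mRNA genes *mt-Nd1*, *mt-Nd2*, *mt-Co1*, *mt-Nd4*, *mt-Nd5*, *mt-Nd6*, and *mt-Cytb*. The other 28 genes had at most 3 counts in every library, and 26 of them were listed at 0 in all 12 libraries. These 9 genes passed the filter on low counts and entered the test across 15306 genes. The other 28 genes did not.

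The mRNA genes without counts lay side by side. Along chrM:7013-10173 of GRCm38, *mt-Co2*, *mt-Atp8*, *mt-Atp6*, *mt-Co3*, *mt-Nd3*, and *mt-Nd4l* followed one another, and each of these 6 genes had at most 2 counts in any library. *mt-Co2*, *mt-Atp8*, *mt-Nd3*, and *mt-Nd4l* were listed at 0 throughout. *mt-Atp6* had 2 counts in sham replicate 3 and 1 in day 1 AMI replicate 4, and *mt-Co3* had 2 counts in sham replicate 2. Their neighbors on either side, *mt-Co1* and *mt-Nd4*, held between 178388 and 2703536 counts per library.

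The same stretch of the genome has a copy in the nucleus. In the GENCODE M21 annotation of GRCm38, 7 pseudogenes stand in a row on the minus strand of chr1:24611535-24616197, a span of 4663 bases. They are copies of the start of *mt-Nd4*, of *mt-Nd4l*, *mt-Nd3*, *mt-Co3*, *mt-Atp6*, and *mt-Co2*, and of the end of *mt-Co1*. Every 75-base stretch of each mitochondrial gene was looked for in the annotated nuclear transcripts. Exact matches covered 99.5% of the stretches of *mt-Co2*, 99.5% of *mt-Atp6*, 99.9% of *mt-Co3*, 97.8% of *mt-Nd3*, and 98.7% of *mt-Nd4l*. Among the genes with counts, the share was 61.5% for *mt-Nd4*, 39.8% for *mt-Co1*, 5.71% for *mt-Nd2*, and 1.66% for *mt-Nd5*. These shares take in pseudogenes on other chromosomes. The copy on chr1 alone held 27.5% of the stretches of *mt-Co1*, and *mt-Nd2* and *mt-Nd5* matched only on other chromosomes. No stretch of *mt-Rnr1*, *mt-Rnr2*, *mt-Nd1*, *mt-Nd6*, or *mt-Cytb* was found in a nuclear transcript. The remaining gene without counts, *mt-Atp8*, also had no 75-base match, although the copy of *mt-Atp6* holds the 43 bases that both genes share. Only transcripts could be searched, and the nuclear genome itself was not analysed here.

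The starts of *mt-Co2* (chrM:7013-7132) and of its copy *Gm28661* (chr1:24615446-24615565, minus strand) are shown because they are the same in all 120 bases, as are the gene and its copy over all 681 bases of the copy. Capitals would mark bases that differ, and there are none.
mt-Co2: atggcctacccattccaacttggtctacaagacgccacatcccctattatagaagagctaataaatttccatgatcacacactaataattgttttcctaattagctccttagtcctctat
Gm28661: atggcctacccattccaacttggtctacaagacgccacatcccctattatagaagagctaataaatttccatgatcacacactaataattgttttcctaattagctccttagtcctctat

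The starts of *mt-Nd3* (chrM:9459-9518) and of its copy *Gm28438* (chr1:24613060-24613119, minus strand) are shown because they differ by 1 base, T3C, counted from the first base of the mitochondrial gene and marked by a capital. It was the only difference over the 345 bases of the copy.
mt-Nd3: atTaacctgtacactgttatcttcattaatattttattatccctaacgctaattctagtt
Gm28438: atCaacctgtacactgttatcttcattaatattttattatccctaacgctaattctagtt

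A stretch of *mt-Co1* (chrM:6381-6440) is set beside the first 60 bases of its partial copy *Gm29216* (chr1:24616138-24616197, minus strand), since the copy begins inside the gene. The 6 capitals mark bases that differ, all of them near the start of the copy.
mt-Co1: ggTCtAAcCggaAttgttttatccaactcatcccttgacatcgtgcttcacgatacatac
Gm29216: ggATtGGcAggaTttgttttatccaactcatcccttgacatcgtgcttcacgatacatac

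The end of *mt-Atp8* (chrM:7891-7969) is shown for a second kind of overlap. Its last 43 bases, in capitals, are also the first bases of *mt-Atp6*, and both genes are read from the same strand.
mt-Atp8: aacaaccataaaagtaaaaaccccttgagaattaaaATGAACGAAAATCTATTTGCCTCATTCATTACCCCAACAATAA

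Nuclear copies had at most 6 counts in any library, with 1 exception. *Gm28438*, the copy of *mt-Nd3*, had between 43 and 122 counts per library and a mean of 77.6. As CPM on the library total, it held 4.97, 3.88, 3.61, and 4.27 in sham hearts, 1.68, 2.46, 1.62, and 1.83 on day 1, and 3.51, 3.32, 2.68, and 1.83 on day 7. On this scale all 4 sham hearts lay above all AMI hearts, narrowly so at 3.61 against 3.51. As TPM (explained below) the groups overlapped, with 66.67 in day 7 AMI replicate 1 and 66.59 and 65.55 in sham replicates 2 and 3. Since *Gm28438* differs from *mt-Nd3* by 1 base, whether its counts came from it or from *mt-Nd3* was not tested. The copies *Gm28661*, *Gm10925*, *Gm28437*, *Gm10222*, and *Gm28439*, named here after their counts were seen, were listed at 0 in every library. How reads that align to several genes were treated was not stated, and the part of the nuclear copies in these zeros was not tested. A listed 0 on these 6 mRNA genes is therefore given only as listed. The levels of *mt-Nd4* and *mt-Co1* rest on counts over genes that are partly shared.

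**Figure D1:**
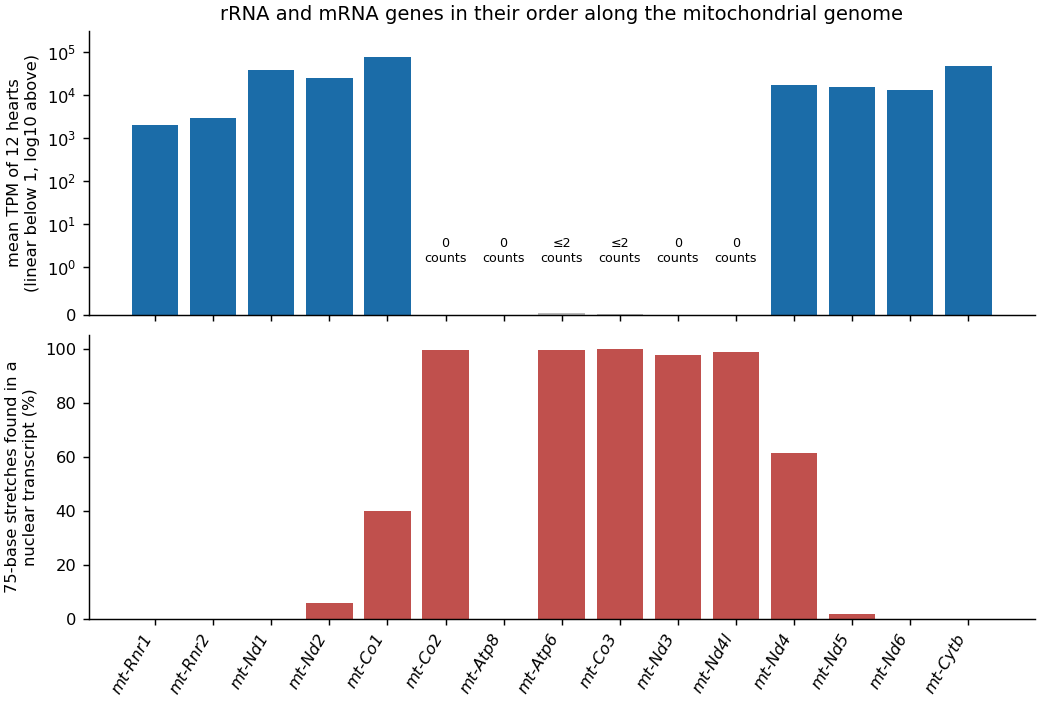
The 15 rRNA and mRNA genes are drawn in their order along the mitochondrial genome. Upper bars give the mean TPM of 12 hearts on an axis that is linear below 1 and log10 above, and lower bars give the percent of 75-base stretches found in a nuclear transcript. The 6 adjoining genes with at most 2 counts in any library include 5 genes with at least 97.8% of their stretches shared.

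All 22 tRNA genes were listed at 0 in all 12 libraries. They are 59 to 75 bases long, shorter than the sequenced reads, and the longest is *mt-Tl1* (chrM:2676-2750), the tRNA gene that stands between *mt-Rnr2* and *mt-Nd1*. Its sequence is shown as the longest of the 22, and no tRNA level can be given.
mt-Tl1: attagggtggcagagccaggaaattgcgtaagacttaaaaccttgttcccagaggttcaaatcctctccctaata

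The share of a library's counts that fell on all 37 genes was set side by side over the groups, without a test. It was 27.4%, 17.9%, 18.6%, and 21.5% in sham replicates 1 to 4. On day 1 it was 15.5%, 15.4%, 15.9%, and 12.1%, and on day 7 it was 13.2%, 19.2%, 17.2%, and 14.9%. All day 1 AMI hearts were below all sham hearts, whereas day 7 AMI overlapped both other groups. Means were 21.4% ± 4.29 (SD, n = 4) in sham, 14.8% ± 1.78 on day 1, and 16.1% ± 2.64 on day 7. The 95% Wilson intervals were at most 0.0353 percentage points wide, which covers counting error only, and with 1 library per heart, the spread between hearts and that between library preparations cannot be told apart.

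Nearly all of this share came from mRNA. Complex IV, through *mt-Co1* alone, took 8.71% ± 1.64 of the counts in sham hearts, 6.23% ± 0.488 on day 1, and 6.63% ± 0.901 on day 7. The counted genes of complex I together took 8.49% ± 1.87, 5.62% ± 0.884, and 6.31% ± 1.22, and complex III, through *mt-Cytb*, took 3.61% ± 0.729, 2.53% ± 0.43, and 2.92% ± 0.543. Each mRNA class was lower in mean on both days than in sham. The rRNA genes held a small share, from 0.557% ± 0.0974 in sham hearts to 0.376% ± 0.0235 on day 1 and 0.238% ± 0.0205 on day 7. In rRNA, the 3 groups did not overlap, with ranges of 0.451% to 0.687%, 0.357% to 0.403%, and 0.221% to 0.265%. Whether rRNA was removed before sequencing was not given in the sources used here, so its share cannot be read as the share in the tissue. If it was removed, how evenly over the libraries is not known, and its part in rRNA differences between groups was not tested.

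**Figure D2:**
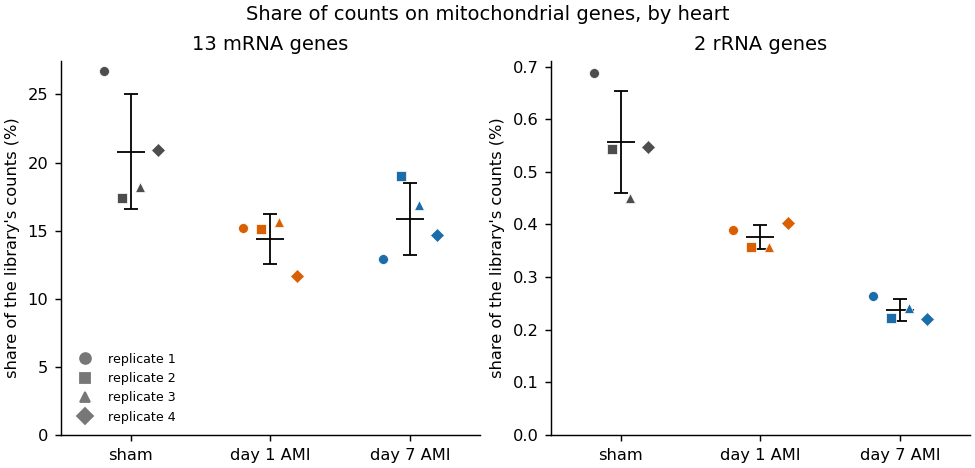
Each point is the share of 1 heart's counts, in percent, on the 13 mRNA genes (left) or the 2 rRNA genes (right), with bars for the mean and SD of 4 hearts. Shares on rRNA separate the 3 groups, while the mRNA shares of day 7 AMI, from 12.9% to 19.0%, overlap those of sham and day 1 AMI.

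Among the measured genes, levels per length of transcript were compared as TPM, the abundance of a transcript relative to the others of its library. In group means the order was *mt-Co1*, *mt-Cytb*, *mt-Nd1*, *mt-Nd2*, *mt-Nd4*, *mt-Nd5*, *mt-Nd6*, *mt-Rnr2*, and *mt-Rnr1* in all 3 groups. The places of *mt-Nd4* and *mt-Co1* rest on counts over genes partly shared with nuclear copies, and how this bears on the order was not tested. In sham hearts *mt-Co1* was at 86458 ± 16588 TPM (SD, n = 4) and *mt-Rnr1* at 3022 ± 471 TPM. Neighbors kept this order in 12 of 12 hearts for 5 of the 8 pairs. For *mt-Cytb* over *mt-Nd1*, *mt-Nd4* over *mt-Nd5*, and *mt-Nd5* over *mt-Nd6* it held in 11 of 12 hearts, and the exception was on day 1 each time.

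Within the counts on the 7 measured mRNAs, the mean part of *mt-Co1* differed little between the groups. *mt-Co1* took 42.0% ± 0.586 in sham hearts, 43.6% ± 2.34 on day 1, and 42.0% ± 1.33 on day 7. *mt-Cytb* took 17.3% ± 0.922, 17.5% ± 0.934, and 18.4% ± 0.616, and *mt-Nd6* took 1.34% ± 0.104, 1.55% ± 0.459, and 1.39% ± 0.194. Over the 7 mRNAs and 3 comparisons, only *mt-Nd1* between day 1 and day 7 and *mt-Nd2* between sham and day 1 had parts without overlap. *mt-Nd1* took 10.5% to 11% on day 7 and 11.2% to 13% on day 1. *mt-Nd2* took 6.97% to 8.11% on day 1 and 8.12% to 9.43% in sham, ranges that nearly met. These parts were not tested, and they depend on one another because all are taken from the same sum.

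Some hearts stood apart from the others of their group. Sham replicate 1 was the highest sham heart for all 9 measured genes. Day 1 AMI replicate 4 was the lowest of its group for 6 of the 7 mRNAs and the highest for *mt-Nd6* and *mt-Rnr2*. Its *mt-Nd4* level was 5625 CPM, with the other hearts of the group between 12562 and 12832 CPM. Day 7 AMI replicate 1 was the lowest of its group for all 7 mRNAs and the highest for both rRNAs, and replicate 2 was the highest for all 7 mRNAs. Within the AMI groups, the heart lowest in most mRNAs was thus not the heart lowest in rRNA. Results without sham replicate 1 and without day 1 AMI replicate 4 follow those with all hearts.

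For comparisons between groups, counts were scaled with edgeR's TMM factors, which set the bulk of genes level between libraries, and are given as CPM, counts brought to a common library total. A gene was said to rise or fall at a false discovery rate (FDR) below 0.05 in edgeR's quasi-likelihood test over 15306 genes, and to be a differentially expressed gene (DEG) when its fold change (FC) was also 2 or greater. Adjusted p-values below come from this test, and errors of log2 FCs are standard errors. Both AMI groups were compared with the same 4 sham hearts. In bulk tissue, fewer cells of a type and less RNA per cell cannot be told apart.

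On day 1 after AMI all 9 measured genes fell against sham. The background was 19.9% of all genes tested that fell in this comparison, and 2.98% that fell as DEGs. The 7 mRNAs had log2 FCs from -0.97 to -0.66 with a median of -0.84, where the median of all genes was -0.012. For 8 of the 9 genes, every day 1 AMI heart was below every sham heart, which held for 17.1% of all genes. Of the 9 genes, *mt-Rnr1* alone was a DEG. The number of DEGs was 0 without sham replicate 1, 2 without day 1 AMI replicate 2, and 3 without sham replicate 2, sham replicate 3, day 1 AMI replicate 1, or day 1 AMI replicate 3.

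On day 7 all 9 genes were again lower than in sham, against a background of 28.4% of all genes. The mRNAs had log2 FCs from -0.96 to -0.72 with a median of -0.81, where the median of all genes was 0.026. Both rRNA genes were DEGs, and 5.88% of all genes were DEGs lower on day 7. The groups did not overlap for 7 of the 9 genes, against 24.7% of all genes tested. Between day 1 and day 7, only the 2 rRNA genes passed the test, and both fell, beside 22.8% of all genes that fell. The 7 mRNAs had log2 FCs between -0.12 and 0.14 from day 1 to day 7. DEGs were 0 of 9 here, where 2.69% of all genes were DEGs that fell, and the groups did not overlap for 2 of 9, against 20.9% of all genes that were lower without overlap. None of the 9 genes rose in the 3 comparisons. Among all genes tested, 22% rose on day 1, 30.9% on day 7, and 24.2% from day 1 to day 7, and 7.79%, 15.3%, and 8.55% rose as DEGs. Genes higher without overlap made up 19.6%, 28.3%, and 23.5% of all genes.

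How libraries were scaled bore on the mRNAs. On library totals alone, which leave the share of each library as it was, the median of all genes moved to 0.26 on day 1 and 0.425 on day 7 against sham. The mRNA log2 FCs were then between -0.68 and -0.37 on day 1, with 6 of 7 past the test, and between -0.54 and -0.3 on day 7, with 2 of 7 past the test. Relative to the shifted median, they were between -0.94 and -0.63 on day 1 and between -0.96 and -0.73 on day 7. With limma on log2(TPM + 1), 3 of 7 mRNAs passed on day 1 and 0 of 7 on day 7, and all 7 were below 0 in both. From day 1 to day 7, where 3 of the 7 were below 0 with TMM, all 7 lay above 0 on library totals, between 0.01 and 0.26, and none passed. The rRNA genes passed under each of these scalings.

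**Figure D3:**
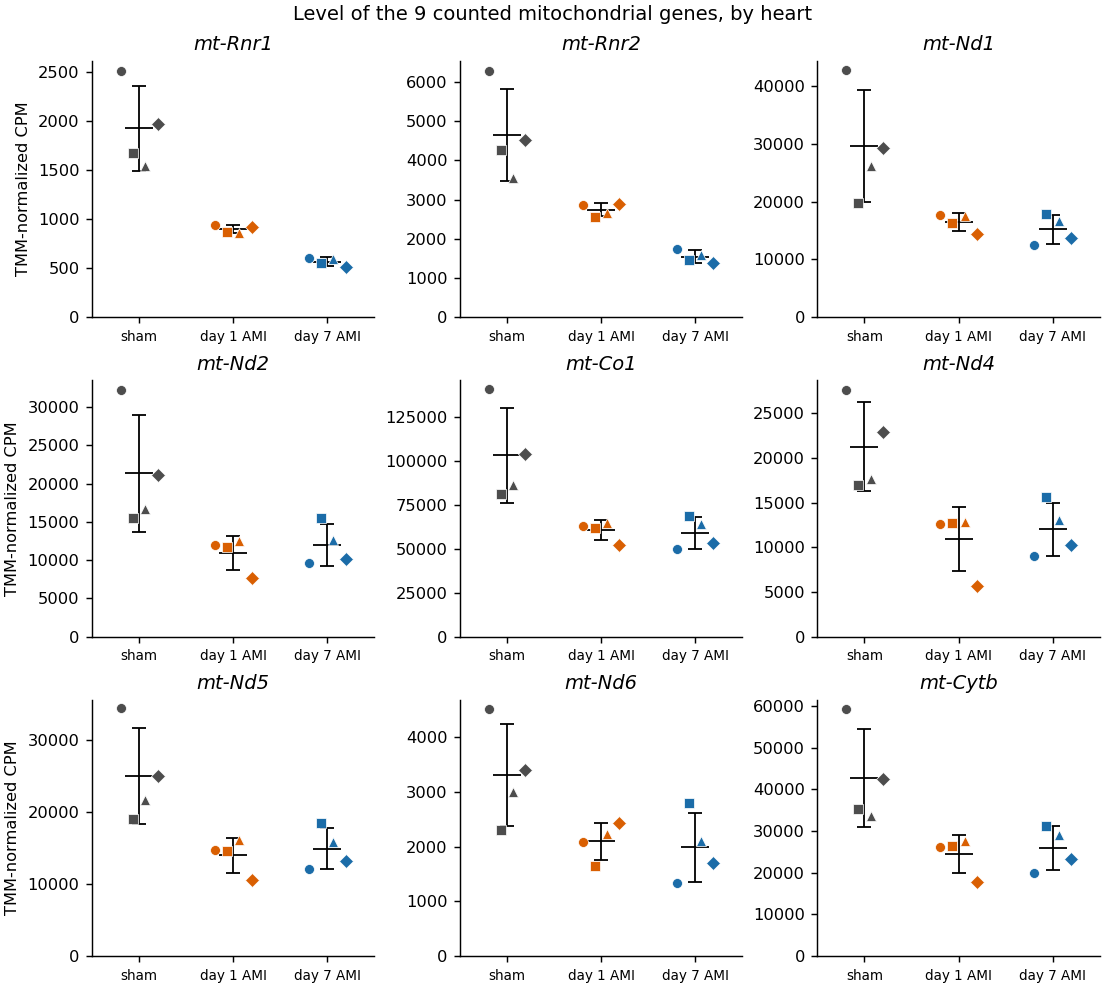
Each panel plots 1 of the 9 measured genes as TMM-normalized CPM for each heart, with bars for the mean and SD of 4 hearts and 1 symbol shape per replicate number. Both rRNAs step down from sham to day 1 AMI to day 7 AMI, while the mRNAs of both AMI groups lie at like levels below most sham hearts.

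The small-subunit rRNA of the mitochondrial ribosome is encoded by *mt-Rnr1* (chrM:70-1024). Its level was 2511, 1678, 1537, and 1970.3 CPM in the sham hearts. It was 941, 870.5, 854, and 923 CPM on day 1, and 605, 556, 594, and 514 CPM on day 7. No groups overlapped, and the level fell at each step. Log2 FCs were -1.10 ± 0.13 on day 1 against sham (adjusted p = 4.51e-05), -1.76 ± 0.133 on day 7 against sham (adjusted p = 1.49e-07), and -0.66 ± 0.13 from day 1 to day 7 (adjusted p = 0.000884). The day 7 level was 29.5% of sham in the fit. The part of any rRNA removal in these differences, and in those of *mt-Rnr2*, was not tested.

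The large-subunit rRNA is encoded by *mt-Rnr2* (chrM:1094-2675), next along the same strand. Sham hearts had 6285, 4254, 3545, and 4513 CPM. Day 1 AMI hearts had 2862, 2551, 2663, and 2887 CPM, and day 7 AMI hearts had 1744, 1447, 1598, and 1373 CPM. The groups were again separate. The log2 FC was -0.76 ± 0.147 on day 1 against sham (adjusted p = 0.00109), -1.59 ± 0.15 on day 7 against sham (adjusted p = 9.45e-07), and -0.83 ± 0.147 from day 1 to day 7 (adjusted p = 0.000416).

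Complex I was represented by 5 of its 7 mitochondrial genes. The first, *mt-Nd1* (chrM:2751-3707), follows *mt-Rnr2* on the same strand and encodes a membrane subunit. It had 42810.4, 19781, 26251, and 29359 CPM in sham, 17644, 16215, 17587, and 14429.6 CPM on day 1, and 12505, 17935, 16694, and 13650.5 CPM on day 7. Every AMI heart was below every sham heart, and the AMI groups overlapped. It fell by 0.84 ± 0.197 on the log2 scale on day 1 (adjusted p = 0.00379) and by 0.96 ± 0.197 on day 7 (adjusted p = 0.000773) against sham, with -0.12 ± 0.196 between the days (adjusted p = 0.652).

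*mt-Nd2* (chrM:3914-4951) encodes another membrane subunit of complex I. Its sham levels were 32254, 15464, 16667, and 21147 CPM. On day 1 they were 11949, 11688, 12469, and 7707 CPM, and day 7 AMI hearts had 9613, 15543, 12569.9, and 10077 CPM. One day 7 heart reached the lowest sham level and passed it. The log2 FC was -0.97 ± 0.234 on day 1 (adjusted p = 0.00472) and -0.84 ± 0.233 on day 7 (adjusted p = 0.00645).

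*mt-Nd4* (chrM:10167-11544), a proton-pumping subunit, showed the greatest spread within day 1 AMI, where the SD was 32.4% of the mean. Sham hearts had 27562, 16980.2, 17625, and 22905 CPM, day 1 AMI hearts 12562, 12704, 12832, and 5625 CPM, and day 7 AMI hearts 9049, 15616, 13082, and 10277 CPM. The AMI hearts were all below the sham hearts. Against sham, the log2 FC was -0.96 ± 0.254 on day 1 (adjusted p = 0.00794) and -0.82 ± 0.253 on day 7 (adjusted p = 0.0117). Without day 1 AMI replicate 4, it was -0.74 ± 0.199 on day 1 (adjusted p = 0.00917).

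*mt-Nd5* (chrM:11742-13565) is the longest of the mRNA genes and encodes a further proton-pumping subunit. It had 34435, 19116, 21758, and 24980.3 CPM in sham, 14781, 14593, 16118, and 10513 CPM on day 1, and 12072, 18444, 15879, and 13202 CPM on day 7. As for *mt-Nd4*, no AMI heart reached a sham heart. It fell by 0.84 ± 0.194 on the log2 scale on day 1 (adjusted p = 0.00349) and by 0.75 ± 0.193 on day 7 (adjusted p = 0.00395).

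*mt-Nd6* (chrM:13552-14070) is the only mRNA gene read from the other strand, as the light-strand transcript, and shares 14 bases with *mt-Nd5* on the opposite strand. Its levels were 4525, 2306, 3006, and 3403 CPM in sham, 2089, 1638, 2222, and 2439 CPM on day 1, and 1343, 2803, 2096, and 1704 CPM on day 7. The highest heart of each AMI group was above sham replicate 2. Log2 FCs were -0.66 ± 0.225 on day 1 (adjusted p = 0.0298) and -0.74 ± 0.225 on day 7 (adjusted p = 0.0114), the weakest call of the 9 genes on day 1. That call was lost when sham replicate 1 (log2 FC -0.47, adjusted p = 0.108), sham replicate 4 (adjusted p = 0.0587), or day 1 AMI replicate 1 (adjusted p = 0.0627), 2 (adjusted p = 0.0898), or 3 (adjusted p = 0.0501) was left out, and on library totals alone (adjusted p = 0.153). Counting by strand was not stated, so reads from the RNA that lies opposite cannot be told apart from its own.

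Complex III has 1 mitochondrial gene, *mt-Cytb* (chrM:14145-15288). Sham hearts had 59355, 35263, 33545, and 42486 CPM. Day 1 AMI hearts had 26144, 26311, 27651, and 17840.4 CPM, and day 7 AMI hearts had 19996, 31266, 29131, and 23290.3 CPM. All AMI hearts were below all sham hearts. The log2 FC was -0.80 ± 0.203 on day 1 (adjusted p = 0.00628) and -0.72 ± 0.203 on day 7 (adjusted p = 0.00717).

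Complex IV was seen only through *mt-Co1* (chrM:5328-6872), the catalytic subunit and the most abundant of the measured transcripts. It had 141021, 80994, 86404, and 103770.1 CPM in sham, 62882, 61575, 64780.3, and 52067 CPM on day 1, and 49577, 68514, 64043, and 53217 CPM on day 7. The sham hearts stood above both AMI groups without overlap. It fell by 0.77 ± 0.175 on the log2 scale on day 1 (adjusted p = 0.00317) and by 0.81 ± 0.175 on day 7 (adjusted p = 0.00117), with -0.04 ± 0.174 between the days (adjusted p = 0.881). No level can be given for *mt-Co2* and *mt-Co3* of this complex or for *mt-Atp6* and *mt-Atp8* of complex V.

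The comparisons were repeated without the hearts that stood apart. Without sham replicate 1, the mRNA log2 FCs against sham were between -0.81 and -0.47 on day 1 and between -0.73 and -0.52 on day 7, and 8 and 9 of the 9 genes fell. Without day 1 AMI replicate 4, they were between -0.83 and -0.68 on day 1, and all 9 genes fell. In that fit, *mt-Rnr1* and *mt-Rnr2* fell from day 1 to day 7 by 0.65 and 0.81 on the log2 scale.

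Ratios of 2 genes within a library do not depend on how libraries are scaled. For 3 such ratios over 3 comparisons, an exact permutation test (two-sided, 4 hearts against 4, smallest p 0.0286) was run and adjusted over the 9 tests. The log2 ratio of *mt-Rnr2* to *mt-Rnr1* was 1.32, 1.34, 1.21, and 1.20 in sham, 1.61, 1.55, 1.64, and 1.64 on day 1, and 1.53, 1.38, 1.43, and 1.42 on day 7. The 3 groups did not overlap, with day 1 AMI the highest and sham the lowest. Differences were 0.34 on day 1 against sham, 0.17 on day 7 against sham, and -0.17 from day 1 to day 7. Each had an exact permutation p of 0.0286, the smallest possible, and an adjusted p of 0.0643, so none passed after adjustment. With 4 hearts against 4, a ratio at the smallest p can pass only if most of the 9 tests reach it. Not passing is therefore no sign that a ratio was unchanged. The part of any rRNA removal in ratios with an rRNA gene was not tested.

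The ratio of rRNA to the first mRNA of the strand was lowest in mean on day 7. For *mt-Rnr2* to *mt-Nd1* it was -2.77, -2.22, -2.89, and -2.70 in sham, -2.62, -2.67, -2.72, and -2.32 on day 1, and -2.84, -3.63, -3.39, and -3.31 on day 7. Day 7 AMI lay below day 1 AMI without overlap, and sham and day 1 AMI overlapped. The difference was 0.06 on day 1 against sham (exact permutation p = 0.686, adjusted p = 0.743), -0.65 on day 7 against sham (exact permutation p = 0.0571, adjusted p = 0.103), and -0.71 from day 1 to day 7 (exact permutation p = 0.0286, adjusted p = 0.0643). The light-strand *mt-Nd6* against its neighbor *mt-Cytb* gave differences of 0.15, -0.04, and -0.20 in the same order, with overlap in each and adjusted p-values of 0.743 in the exact permutation test. Day 1 AMI replicate 4, at -2.87, was apart from the other hearts of its group, which lay between -4.01 and -3.64.

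Nuclear genes encode the other subunits of the same complexes. From a list of 80 nuclear genes for subunits of complexes I to V, 62 fell and 1 rose on day 1 against sham, with a median log2 FC of -0.41, beside 19.9% of all genes that fell and 22% that rose. On day 7, 79 fell and 0 rose against sham, with a median of -1.08, and from day 1 to day 7, 77 fell and 0 rose, with a median of -0.65, beside 28.4% and 22.8% of all genes that fell in these comparisons. Beside these, the medians of the 7 mitochondrial mRNAs were -0.84, -0.81, and 0.08. The day 1 contrast was smaller without sham replicate 1, where the nuclear median was -0.46 and the mRNAs lay between -0.81 and -0.47. Most nuclear subunit genes fell from day 1 to day 7, whereas none of the 7 mitochondrial mRNAs passed the test there. The day 1 count rested on scaling, since 12 of the 80 genes fell on library totals alone (median -0.15) and 5 with limma on log2(TPM + 1) (median -0.09). For day 7 against sham these counts were 76 and 73. Relative to the median of all genes, the list's day 1 median was -0.4 with TMM, -0.41 on library totals, and -0.32 with that limma fit.

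By complex, the nuclear medians were alike. For complex I, 28, 36, and 35 of 36 genes fell in the 3 comparisons, with medians of -0.41, -1.12, and -0.73. For complex II, which has no mitochondrial gene, all 4 genes fell each time, with medians of -0.44, -1.14, and -0.69. In complex III, 7, 9, and 9 of 9 genes fell, in complex IV 11, 13, and 14 of 14, and in complex V 12, 17, and 15 of 17. The gene that rose on day 1 was *Cox6a1*, the liver and ubiquitous form of a complex IV subunit, at a log2 FC of 0.23 ± 0.0691 (adjusted p = 0.0145). The largest falls on day 1 were in *Cox8b* (-0.65), *Ndufa10* (-0.61), and *Ndufb4* (-0.61). On day 7 they were in *Cox7a1* (-1.81), the heart and skeletal muscle form of a complex IV subunit, *Atp5k* (-1.75), and *Ndufs6* (-1.73), and from day 1 to day 7 in *Atp5k* (-1.60), *Ndufa2* (-1.47), and *Atp5e* (-1.36).

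**Figure D4:**
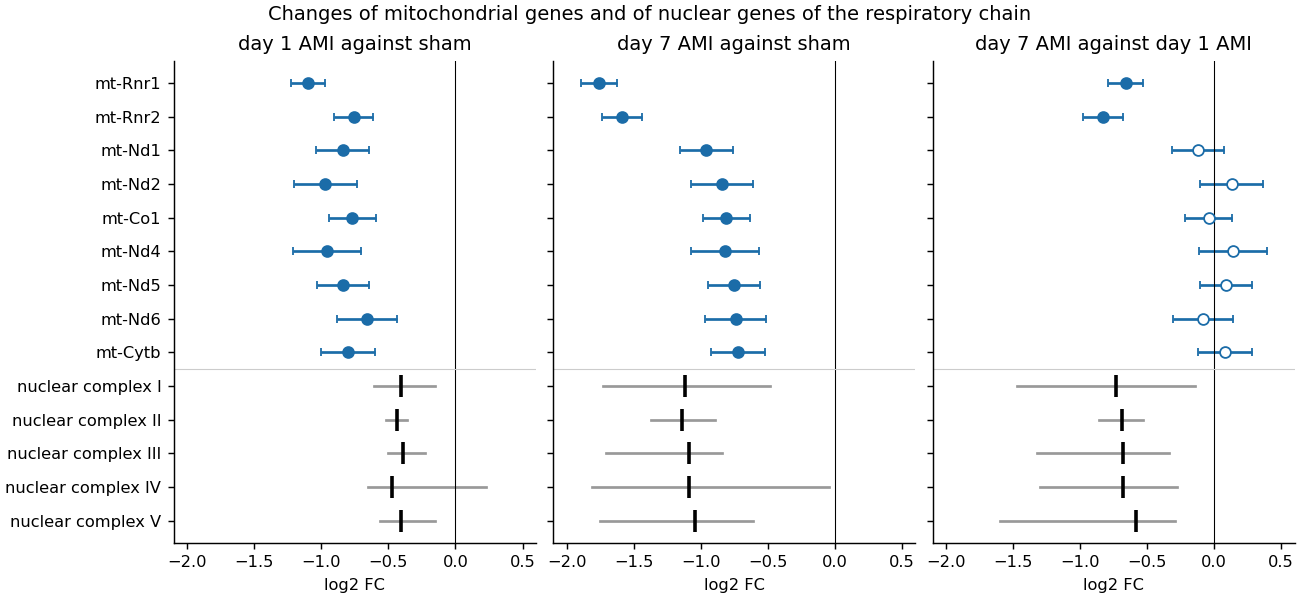
Blue points give the log2 FC and standard error of the 9 measured mitochondrial genes in each comparison, filled where FDR was below 0.05. Black marks give the median and gray lines the range of the nuclear genes of each complex. In the right panel the mitochondrial mRNAs lie around 0, between -0.12 and 0.14, whereas the rRNAs and the nuclear medians lie between -0.83 and -0.58.

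To set mitochondrial against nuclear subunits within a library, a ratio was formed in each of complexes I, III, and IV between the mitochondrial and the nuclear gene with the highest mean TPM. These 3 ratios were added after the changes of the genes had been seen. The log2 ratio of *mt-Co1* to *Cox8b* was 8.23, 7.36, 7.58, and 7.71 in sham, 7.83, 7.65, 7.68, and 7.35 on day 1, and 7.98, 8.82, 8.06, and 8.35 on day 7. Day 7 AMI lay above day 1 AMI without overlap, by 0.68 (exact permutation p = 0.0286). The same held for *mt-Nd1* to *Ndufa3*, by 0.87, and for *mt-Cytb* to *Uqcr10*, by 0.70, at the same p. After adjustment over the 9 tests of this kind, p was 0.0857 for each, which did not pass. Here too, 0.0286 was the smallest p that the test can give, and adjustment alone kept it from passing. For *mt-Co1* to *Cox8b*, *mt-Nd1* to *Ndufa3*, and *mt-Cytb* to *Uqcr10*, the differences on day 1 against sham were -0.09, -0.27, and -0.46, with overlap and adjusted p-values of 0.714, 0.714, and 0.429 in the exact permutation test. On day 7 against sham they were 0.58, 0.59, and 0.24, also with overlap, and the adjusted p-values of that test were 0.193, 0.429, and 0.661.

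**Figure D5:**
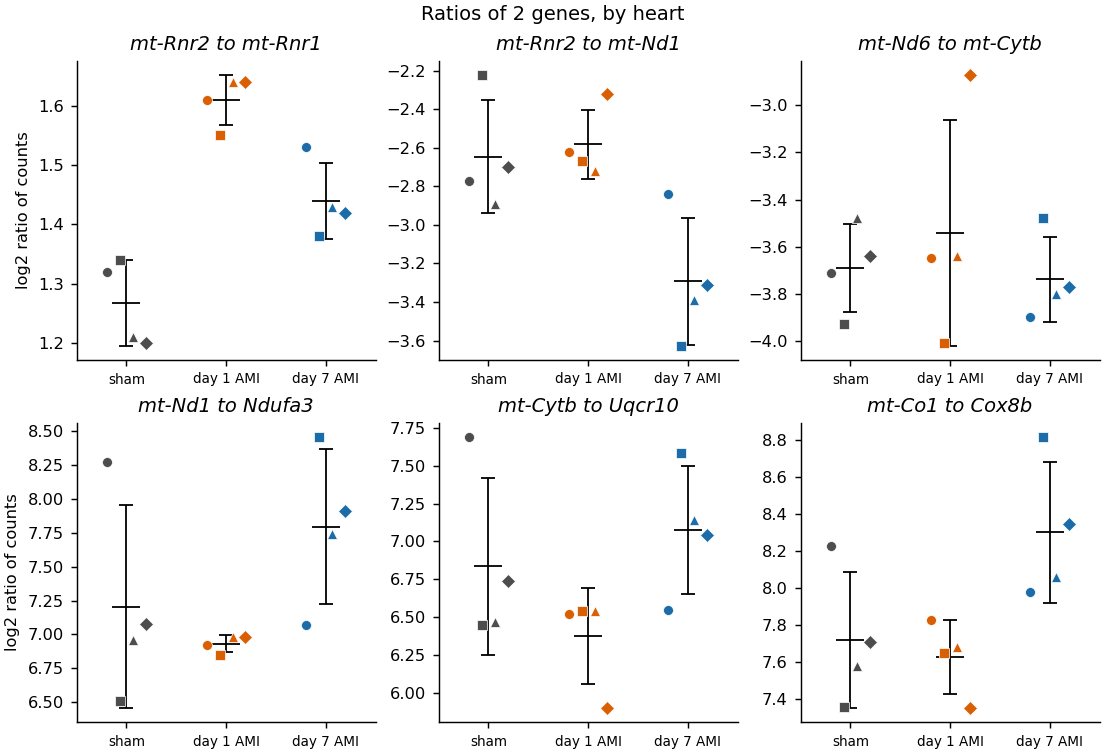
Each panel plots the log2 ratio of the counts of 2 genes for each heart, with bars for the mean and SD of 4 hearts and 1 symbol shape per replicate number. The ratio of mt-Rnr2 to mt-Rnr1 separates the 3 groups, and in the lower row each mitochondrial to nuclear ratio is higher in all day 7 AMI hearts than in all day 1 AMI hearts.

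The nuclear genes that copy, transcribe, and process the mitochondrial genome were followed as a list of 43. On day 1 against sham, 19 fell and 3 rose, with a median log2 FC of -0.21. On day 7, 35 fell and 1 rose against sham (median -0.55), and from day 1 to day 7, 21 fell and 1 rose (median -0.25). Among all genes, 19.9%, 28.4%, and 22.8% fell and 22%, 30.9%, and 24.2% rose in the same order. The calls and the sign of the median of this list also rested on scaling. Relative to the median of all genes, the list's median was -0.2 on day 1 and -0.58 on day 7 with TMM. It was the same on library totals alone, and -0.16 and -0.42 with limma on log2(TPM + 1). On library totals alone, 2 fell and 6 rose on day 1 (median 0.06) and 13 fell and 4 rose on day 7 (median -0.15), and with limma on log2(TPM + 1), 0 fell and 7 rose on day 1 (median 0.07) and 5 fell and 8 rose on day 7 (median 0.02). With TMM, *Polrmt*, the mitochondrial RNA polymerase, fell by 0.34 ± 0.0733 on day 1 (adjusted p = 0.00219) and by 0.55 ± 0.0736 on day 7 (adjusted p = 2.03e-05) on the log2 scale against sham. *Tfb2m*, which opens the promoter with it, fell by 0.52 and 0.60, and *Tefm*, an elongation factor, fell by 0.28 and 0.74. For *Tfam*, which packages and bends the mitochondrial DNA, the log2 FC on day 1 was -0.19 ± 0.0948 (adjusted p = 0.131), and it fell by 0.43 on day 7.

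*Lrpprc*, which with *Slirp* stabilizes mitochondrial mRNAs, fell by 0.57 on day 1 and 0.82 on day 7. *Slirp* itself had a log2 FC of -0.15 ± 0.128 on day 1 (adjusted p = 0.352) and fell by 0.64 on day 7. *Twnk*, the replicative helicase, fell by 0.25 and 1.01, and *Polg*, the DNA polymerase, fell by 0.25 and 0.44. Other large falls were in *Mterf2* on day 1 (-0.76), in *Hsd17b10* (-1.31), part of the enzyme that cuts tRNA ends, and *Mgme1* (-1.0), a nuclease of mitochondrial DNA, on day 7, and in *Mrm3* (-0.85), *Hsd17b10* (-0.84), and *Mrm2* (-0.77) from day 1 to day 7. *Mrm2* and *Mrm3* encode methyltransferases that modify the large mitochondrial rRNA. The genes that rose on day 1 were *Rnaseh1* (0.45), *Rexo2* (0.30), and *Elac2* (0.21), all nucleases, and *Primpol*, a primase-polymerase, rose on day 7 against sham (1.06) and against day 1 (1.00).

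Markers of the cell types in the heart also differed between the groups. Median log2 FCs of the cardiomyocyte markers were -0.53, -1.05, and -0.34 in the 3 comparisons, beside -0.84, -0.81, and 0.08 for the mitochondrial mRNAs. The summed level of 11 cardiomyocyte markers ran from 74034 to 89671 CPM in sham, from 48661 to 59954 on day 1, and from 41993 to 48432 on day 7, and 8, 10, and 6 of the 11 fell in the 3 comparisons, beside 19.9%, 28.4%, and 22.8% of all genes. Of 10 leukocyte markers, all 10 rose on both days, beside 22% and 30.9% of all genes, from sums of 79.6 to 137 CPM in sham to 299 to 438 on day 1 and 302 to 490.2 on day 7. Of 7 fibroblast markers, 5 rose and 1 fell on day 1, and 7 rose on day 7, beside 22% and 30.9% of all genes that rose. Their highest sum in sham was 1209 CPM, and the sums on day 7 were 6702 to 12406 CPM. Erythroid markers summed to 491 to 4450.4 CPM in sham hearts, with replicate 2 the highest, and to 420.4 to 649 CPM on day 1 and 241 to 969 CPM on day 7. Skeletal muscle markers summed to at most 6.18 CPM in any heart. No marker list was at 0, and the part of these changes in cell makeup in the mitochondrial results was not tested.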

How the data were processed

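RNA-seq was made from 12 whole hearts, 4 per group. Per the labels and the study's methods, reads were aligned with STAR 2.4.0j to GRCm38 (mm10) and TPM was estimated with RSEM by the authors. The authors deposited raw counts and TPM for 53801 genes. The counting tool, strand setting, treatment of reads with several alignments, and rRNA removal were not given in the sources used here.

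Counts were tested with edgeR 4.0.16 (R 4.3.3) in one quasi-likelihood fit of 3 groups, with TMM factors, filterByExpr, and Benjamini-Hochberg adjustment over 15306 genes. limma 3.58.1 and DESeq2 1.42.0 served as alternatives. Ratios were tested by exact two-sided permutation. Each heart was 1 library, so p-values rest on the spread between libraries, which mixes that between hearts and that between library preparations. In the edgeR fit, the 3 groups shared the estimate of this spread. Depth of 23204551 to 32166517 counts left counting error small.

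The genes and lists were chosen with earlier results of these data known. Named nuclear genes were the 3 largest rises and falls past FDR 0.05 in each list and comparison, plus *Polrmt*, *Tfam*, *Tfb2m*, *Tefm*, *Lrpprc*, *Slirp*, *Twnk*, and *Polg*, and nuclear copies with a mean of at least 10 counts. Outside this rule, *Ndufa3* and *Uqcr10* were named for the added ratios, and the other nuclear copies for their sequence or their counts, after values were seen. Every mt- gene could be named. Sequences came from the GENCODE M21 transcripts.

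Other marker counts were as follows. In day 1 AMI, day 7 AMI (both against sham), and day 7 against day 1 AMI, 0, 4, and 5 of 5 endothelial markers rose and 1, 0, and 0 fell. Of 5 smooth muscle markers, 1, 2, and 2 rose and 2, 1, and 0 fell. Of 4 atrial markers, 1, 1, and 0 rose, and of 3 tested adipocyte markers, 0, 1, and 1 fell. Of 5 erythroid markers, 3, 3, and 0 fell, and of 2 tested skeletal muscle markers, 1 rose each time. Beside these, 22%, 30.9%, and 24.2% of all genes tested rose, and 19.9%, 28.4%, and 22.8% fell.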

Additional observations from a re-analysis of the deposited data

Results flagged for a closer look

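Of 69 group values checked, 9 had 1 heart far from the other 3 of its group, by Dixon's test of the gap to the nearest heart at 95%. Chance gives this in about 1 of 20 groups. Day 1 AMI replicate 4 accounted for 8 of them. Its levels were 7707 CPM for *mt-Nd2*, with the other hearts between 11688 and 12469, 5625 CPM for *mt-Nd4*, with the others between 12562 and 12832, and 17840.4 CPM for *mt-Cytb*, with the others between 26144 and 27651. Its share of counts on the mitochondrial genes was 12.1%, with the others between 15.4% and 15.9%. Of its mitochondrial mRNA counts, *mt-Nd2* took 6.97% (others 8.07% to 8.11%), *mt-Nd4* took 5.08% (others 8.35% to 8.78%), and *mt-Co1* took 47.1% (others 42.2% to 42.5%). The log2 ratio of *mt-Cytb* to *Uqcr10* was 5.90 there and 6.52 to 6.54 in the others. The remaining value was the part of *mt-Nd5* in sham replicate 3, at 10.6% against 10.1% in each other sham heart.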

How the results depend on the processing

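Across the alternatives run, no called change of a mitochondrial gene changed direction, and the rRNA calls held in all of them. None of these alternatives bears on rRNA removal. The number of mitochondrial genes that fell on day 1 was 5 with limma on log2(TPM + 1) and 4 on log2(TPM + 0.1). On day 7 it was 4 on library totals alone and 2 in both limma fits. DEGs on day 1 were 0 on library totals and in both limma fits, and 2 with the replicate block. On library totals the medians of all genes shifted to 0.26, 0.425, and 0.148 in the 3 comparisons, and genes higher and lower went from 3360 and 3043 to 6289 and 1061 on day 1, from 4728 and 4353 to 8237 and 1659 on day 7, and from 3701 and 3496 to 4772 and 2168 between the days. The replicate numbers did not pair the hearts (correlations of same-numbered deviations from -0.283 to 0.173, best for 6 of 24), and with the replicate block *mt-Nd6* on day 1 had an adjusted p of 0.0568. As a sign-flip test over the replicate pairing, whose smallest p is 0.125, the ratio differences of 0.34, 0.17, -0.17, and -0.71 and the added 0.87, 0.70, and 0.68 could not pass. On TPM, *mt-Nd1* to *Ndufa3* differed by 0.93 from day 1 to day 7 (exact permutation p = 0.0571). As shares of TPM, the mitochondrial genes held 27.4%, 19.5%, and 22.8%. Leaving out each heart gave 8 to 9 genes that fell on day 1, 9 on day 7, and 2 between the days, 0 to 3 and 2 to 3 DEGs on day 1 and day 7, and shares of 19.4% to 22.5%, 14.4% to 15.6%, and 15.1% to 17.1%. In the order day 1 against sham, day 7 against sham, and day 7 against day 1, it gave differences of 0.32 to 0.37, 0.14 to 0.20, and -0.20 to -0.15 for *mt-Rnr2* to *mt-Rnr1*, -0.03 to 0.20, -0.80 to -0.51, and -0.86 to -0.60 for *mt-Rnr2* to *mt-Nd1*, -0.07 to 0.31, -0.13 to 0.03, and -0.35 to 0.03 for *mt-Nd6* to *mt-Cytb*, -0.51 to 0.08, 0.36 to 0.95, and 0.64 to 1.11 for *mt-Nd1* to *Ndufa3*, -0.59 to -0.18, 0.08 to 0.53, and 0.54 to 0.88 for *mt-Cytb* to *Uqcr10*, and -0.21 to 0.07, 0.41 to 0.75, and 0.50 to 0.78 for *mt-Co1* to *Cox8b*. Causes of these shifts were not tested.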
